A study of Homo sapiens with 6 samples.

Results

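Integrins are transmembrane receptors built from one α and one β chain, through which epithelial cells hold on to the extracellular matrix and sense it. The α chain largely sets the ligand (collagens, laminins, or proteins with an RGD motif such as fibronectin and vitronectin), and the tail of the β chain carries the link to talin, kindlin and the actin cytoskeleton. One exception is the β4 chain, which pairs with α6 and ties laminin to keratin filaments in hemidesmosomes, the anchoring junctions of basal epithelial cells. In the prostate the basal cells carry α6β4 and α2β1, and the repertoire changes in carcinoma. The 10 genes described here, ITGA2, ITGA3, ITGA5, ITGA6, ITGAV, ITGB1, ITGB4, ITGB5, ITGB6 and ITGB8, encode the integrin chains of epithelial tumour cells. They were chosen by name and all 10 were found among the 19727 genes of the table, which holds 26 integrin chains in all.

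The data come from RNA sequencing of DU145, an established human prostate cancer cell line. Cells transfected with lentivirus-circCSPP1, which overexpress the circular RNA circCSPP1 (OE), were compared with cells transfected with lentivirus-NC, the negative control (NC), with 3 libraries in each group. Both were stable lines selected with puromycin, and each group carried its own vector, so an effect of the circular RNA and an effect of the line or its selection cannot be told apart. The design text speaks of 3 pairs, but neither it nor the labels say what a pair shared or that the replicate numbers mark it, so the fit had no pairing term. The labels also do not say whether the libraries came from separate cultures, so the p-values below measure the spread between these libraries, which may be technical. Values are FPKM (fragments per kilobase of transcript per 1000000 fragments), which allow levels of different genes to be compared. The test is limma on log2(FPKM + 1), and a gene is said to rise or fall where its p, adjusted by the Benjamini-Hochberg method over the 12322 genes whose mean reached 1 FPKM, was under 0.05. On this scale the change of a low gene is understated.

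The depth of the libraries, read from the steps between low FPKM values, was 28900000 to 36500000 fragments, and the ranges of the groups overlapped. CSPP1, the host gene of the circular RNA, measured 9.54 ± 0.493 FPKM in NC and 19.5 ± 4.44 FPKM in OE (SD, n = 3), higher in OE. A gene-level value from polyadenylated RNA does not separate the circle, the vector and the linear transcript. By qRT-PCR the study reported that its vectors raised circCSPP1 and left CSPP1 mRNA unchanged. The cells were epithelial by their markers: KRT7, KRT8, KRT18 and KRT19 lay between 319 and 2753 FPKM in every library, with CDH1 at 2.44 to 11.5 FPKM and EPCAM at 10.6 to 21.3 FPKM. The basal keratin KRT5 stayed under 1 FPKM, as did the luminal prostate markers KLK2, KLK3 and TMPRSS2. All 5 fibroblast and all 4 endothelial markers were under 1 FPKM in every library. Of the leukocyte markers, PTPRC and CD3E were at or near 0, while CD68 and ITGB2 were not. OE replicate 1 stood apart from the other OE libraries (Pearson r across tested genes 0.970 and 0.979 with replicates 2 and 3, which had 0.990 with each other), so each member is also given without it.

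The study proposes that circCSPP1 binds the microRNA miR-520h and so frees its target EGR1. Integrins are not part of that proposal. The mature miR-520h and its matches in the integrin 3′ UTRs are shown first. The microRNA (RefSeq, GRCh38.p14) is printed 5′ to 3′ with its seed, bases 2 to 8, in capitals.
hsa-miR-520h: aCAAAGUGcuucccuuuagagu
A match was taken as CACTTTG (complementary to bases 2 to 8) or ACTTTGA (bases 2 to 7 followed by A) in the longest 3′ UTR of each gene in GENCODE release 29. In the following windows of 30 bases, printed in the direction of the transcript, the match is in capitals. ITGA2, ITGA6 and ITGAV each held 1 copy of the full 8 bases, CACTTTGA.
ITGA2 at chr5:53092074-53092103 (GRCh38, plus strand, exon 30): cagatggaccaCACTTTGAgaaacaccacc
ITGA6 at chr2:172505002-172505031 (GRCh38, plus strand, exon 26): tgggaggtcatCACTTTGAcctaaattatt
ITGAV at chr2:186680650-186680679 (GRCh38, plus strand, exon 30): cagttttgaaaCACTTTGAaatatcctaag
A further match of 7 bases in ITGA6 and the single match of ITGB1 are printed next, and this list of 7-base matches is not complete.
ITGA6 at chr2:172505920-172505949 (GRCh38, plus strand, exon 26): aaggagctgatACTTTGAcagtgtttttag
ITGB1 at chr10:32900551-32900580 (GRCh38, minus strand, exon 16): acgcgagtcttACTTTGAgttagtgccata
In all, 4 of the 10 members held a match of at least 7 bases, against 32.7% of the 12269 tested genes with a 3′ UTR. The full 8 bases occurred in 3 of the 10 members and in 5.52% of the tested genes. The median 3′ UTR was 1873 nt in the members and 1316 nt in the tested genes, and a longer 3′ UTR has more room for a match. ITGA3, ITGA5, ITGB4, ITGB5, ITGB6 and ITGB8 held no match of 7 bases in these sequences. A match of letters is not evidence of binding.

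The 10 chains spanned a wide range of levels. In NC the order was ITGB1 (1390 ± 64.2 FPKM, SD, n = 3), the shared β chain of most matrix receptors, then ITGA3 (780 ± 20.8 FPKM), ITGA5 (81.6 ± 1.75 FPKM), ITGB5 (78.3 ± 2.06 FPKM), ITGB4 (44.8 ± 3.24 FPKM), ITGA6 (40.0 ± 8.58 FPKM), ITGAV (25.4 ± 1.04 FPKM) and ITGA2 (14.1 ± 0.561 FPKM). The NC ranges of the neighbours ITGA5 and ITGB5 overlapped, as did those of ITGB4 and ITGA6, while the other neighbours in this order did not overlap. ITGB8 (0.187 ± 0.0666 FPKM) and ITGB6 (0.0467 ± 0.0451 FPKM) were barely detected. ITGA3 made up 80.7% to 81.6% of the summed FPKM of all α chains in NC, and ITGB1 88.0% to 88.6% of the summed FPKM of all β chains, so by transcript level the chains of the laminin receptor α3β1 were the most abundant of each kind. In OE the upper end of the order was closer together: ITGB1 was at 1179 ± 148 FPKM and ITGA3 at 865 ± 141 FPKM, and their ranges overlapped through OE replicate 1.

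**Figure D1:**
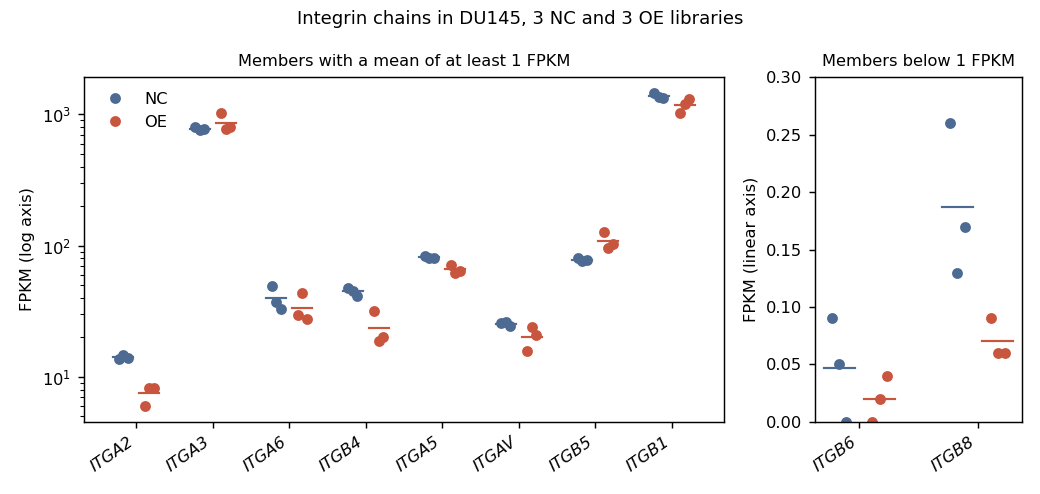
FPKM of the 10 integrin chains in each of the 3 NC (blue) and 3 OE (red) libraries, with a line at each group mean. The left panel has a log axis and the right panel, with ITGB6 and ITGB8, a linear axis from 0. The groups lie apart for ITGA2, ITGB4, ITGA5, ITGAV, ITGB5, ITGB1 and ITGB8 and overlap for ITGA3, ITGA6 and ITGB6.

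Of the 10 members, 8 reached a mean of 1 FPKM and were tested, and 2 (ITGB6 and ITGB8) were not. With circCSPP1 overexpression ITGA2 and ITGB4 fell, ITGB5 rose, and the other 5 did not pass the test. Of all tested genes 11.4% passed, 4.69% higher and 6.66% lower in OE. The median log2 fold change of the 8 tested members was -0.28, and that of all tested genes -0.03. In 6 of the 8 the groups did not overlap, against 36.4% of all tested genes. In 5 of these every OE library was below every NC library, as in 20.5% of all tested genes, and in 1 (ITGB5) every OE library was above, as in 16.0%. With 3 libraries against 3 the smallest p of an exact permutation test (two-sided) is 0.10. It was reached by ITGA2, ITGB4 and ITGB5 and equally by ITGA5, ITGAV, ITGB1 and ITGB8, and so does not separate the members that passed in limma from these.

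ITGA2 encodes the α2 chain, which with β1 forms the main collagen receptor of epithelial cells. It lies on chromosome 5 from 52989326 to 53094779 (GRCh38, plus strand). It measured 13.7, 14.8 and 13.9 FPKM in NC replicates 1, 2 and 3, and 5.98, 8.27 and 8.26 FPKM in OE replicates 1, 2 and 3. All OE libraries were below all NC libraries, with OE replicate 1 the lowest. ITGA2 fell, with a log2 fold change of -0.84 (SE 0.14, 95% interval -1.16 to -0.52, adjusted p = 0.011), and the OE level was 0.558 times the NC level on this scale. Without OE replicate 1 it was -0.70 (adjusted p = 0.0025). This gene carries one of the 8-base miR-520h matches printed above.

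The other collagen-binding α chains are not members but share this role. ITGA1 measured 2.01 ± 0.225 FPKM in NC and 1.35 ± 0.203 FPKM in OE, a log2 fold change of -0.36 that did not pass the test (adjusted p = 0.094). ITGA10 (0.603 ± 0.0907 and 0.153 ± 0.0153 FPKM) and ITGA11 (0.0833 ± 0.0289 and 0.0233 ± 0.0153 FPKM) were too low to be tested. In all 4 collagen-binding chains, 2 of them untested, the OE libraries lay below the NC libraries. The same held for 8 of the 14 integrin chains tested and for 20.5% of all tested genes. ITGA1, ITGA10 and ITGA11 were picked for their shared ligand after their values had been seen.

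Of the 4 laminin-binding chains ITGA3, ITGA6, ITGA7 and ITGB4, ITGB4 alone passed the test, and ITGA7, not a member, differed by -0.50 on the log2 scale (adjusted p = 0.13). ITGB4, the hemidesmosome chain, lies on chromosome 17 from 75721328 to 75757818 (plus strand). It measured 48.0, 45.0 and 41.5 FPKM in NC replicates 1, 2 and 3, and 32.1, 18.7 and 20.2 FPKM in OE replicates 1, 2 and 3. All OE libraries were below all NC libraries, but OE replicate 1 lay well above the other OE libraries. ITGB4 fell, with a log2 fold change of -0.93 (SE 0.19, 95% interval -1.38 to -0.48, adjusted p = 0.024). Without OE replicate 1 it was -1.16 (adjusted p = 0.0011).

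ITGA6, the partner of β4 and an alternative partner of β1, measured 49.6, 37.3 and 33.2 FPKM in NC and 29.9, 43.5 and 27.7 FPKM in OE replicates 1, 2 and 3. The groups overlapped, and NC replicate 1 and OE replicate 2 were the highest of their groups. Its log2 fold change of -0.25 had a 95% interval of -0.73 to 0.23 (adjusted p = 0.47), and it was -0.09 without NC replicate 1 and -0.44 without OE replicate 2. The gene-level value does not separate the splice forms of ITGA6. Per kilobase, the ratio of ITGB4 to ITGA6 was 0.967, 1.21 and 1.25 in NC and 1.07, 0.429 and 0.731 in OE replicates 1, 2 and 3, and the groups overlapped through OE replicate 1.

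ITGA3, the α chain of the laminin receptor α3β1, measured 804, 765 and 771 FPKM in NC and 1027, 770 and 799 FPKM in OE replicates 1, 2 and 3. OE replicate 1 alone stood above the rest. The log2 fold change was 0.14 (95% interval -0.12 to 0.40, adjusted p = 0.47), and 0.01 without OE replicate 1 (adjusted p = 0.89). ITGA3 held 83.3% to 88.0% of the α-chain FPKM in OE, above the NC range given earlier.

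Among the chains of RGD receptors, ITGB5 rose. It encodes β5, which pairs with αv to bind vitronectin, and lies on chromosome 3 from 124761948 to 124901418 (minus strand). It measured 80.4, 76.4 and 78.0 FPKM in NC replicates 1, 2 and 3, and 127, 96.1 and 104 FPKM in OE replicates 1, 2 and 3. All OE libraries were above all NC libraries, with OE replicate 1 the highest. For ITGB5 the log2 fold change came to 0.46 (SE 0.11, 95% interval 0.20 to 0.72, adjusted p = 0.040), and 0.35 without OE replicate 1 (adjusted p = 0.0095).

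ITGAV, the α chain that β5 needs, measured 25.6, 26.4 and 24.3 FPKM in NC and 15.7, 24.0 and 21.0 FPKM in OE replicates 1, 2 and 3. The groups did not overlap, but OE replicate 2 lay just under the lowest NC library. The log2 fold change was -0.34 (95% interval -0.69 to 0.02, adjusted p = 0.20), and -0.17 without OE replicate 1 (adjusted p = 0.16). ITGA5, which with β1 forms the classical fibronectin receptor, measured 83.6, 80.3 and 81.0 FPKM in NC and 71.8, 62.0 and 64.6 FPKM in OE. All its OE libraries were below all NC libraries, and its log2 fold change of -0.30 (95% interval -0.50 to -0.10) narrowly missed the threshold (adjusted p = 0.061). Without OE replicate 1 it was -0.36 (adjusted p = 0.0065).

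Of the other partners of αv, ITGB3, ITGB6 and ITGB8 were compared with ITGB5. ITGB1, which also pairs with αv and is described below, was left out of this comparison. ITGB3, which is not a member and encodes the β3 chain of another vitronectin receptor, fell from 10.8 ± 0.551 FPKM in NC to 4.32 ± 0.785 FPKM in OE, which is -1.16 on the log2(FPKM + 1) scale (SE 0.13, adjusted p = 0.0040). It was the single called chain among the 6 tested of the other 16 integrin chains. The ratio of ITGB5 to ITGB3 per kilobase was 7.90, 6.89 and 6.98 in NC replicates 1, 2 and 3, and 24.2, 24.8 and 26.8 in OE replicates 1, 2 and 3. Here OE replicate 1 did not stand apart, and of the summed FPKM of ITGB3, ITGB5, ITGB6 and ITGB8, ITGB5 held 87.1% to 88.4% in NC and 96.0% to 96.3% in OE.

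ITGB6 and ITGB8 encode the β chains with which αv activates a latent growth factor held in the matrix. ITGB6 measured 0.09, 0.05 and 0 FPKM in NC and 0, 0.02 and 0.04 FPKM in OE, and the groups overlapped. With the depth of the libraries and the longest transcript these values stand for 12 fragments at most. ITGB8 measured 0.26, 0.13 and 0.17 FPKM in NC and 0.09, 0.06 and 0.06 FPKM in OE, or about 33 to 67 fragments in NC and 15 to 26 in OE. All OE libraries were below all NC libraries, but at this level no difference was tested in the fit with a filter. With no filter its log2 fold change was -0.15 (adjusted p = 0.11).

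ITGB1, the partner of α2, α3, α5, α6 and αv, measured 1462, 1369 and 1339 FPKM in NC and 1020, 1203 and 1313 FPKM in OE replicates 1, 2 and 3. The groups did not overlap, although OE replicate 3 was close to the lowest NC library. The log2 fold change was -0.24 (95% interval -0.48 to -0.01, adjusted p = 0.16), and -0.14 without OE replicate 1 (adjusted p = 0.11). The summed FPKM of the 10 members was 0.395% to 0.427% of the library in NC and 0.378% to 0.395% in OE.

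**Figure D2:**
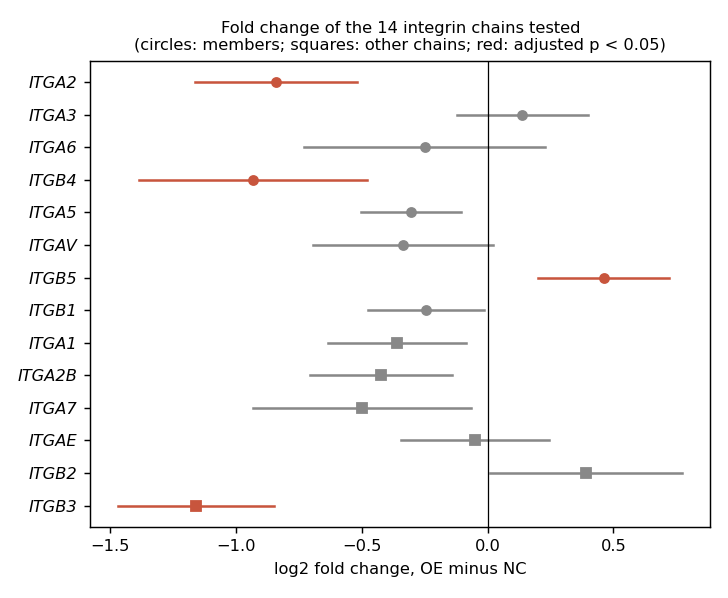
Log2 fold change (OE minus NC, on log2(FPKM + 1)) of the 14 integrin chains tested, with 95% intervals from limma, members as circles and other chains as squares. ITGA2, ITGB4 and ITGB3 fell and ITGB5 rose (red, adjusted p under 0.05), and the other 10 chains (grey) did not pass.

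The chains with a match to miR-520h can be set beside these values. The 4 matched members had log2 fold changes of -0.84 (ITGA2), -0.25 (ITGA6), -0.34 (ITGAV) and -0.24 (ITGB1), all with lower group means in OE. ITGA2 alone of these passed the test. Their median was -0.29, against -0.28 for all tested members. Of the unmatched tested members, ITGB4 (-0.93) and ITGA5 (-0.30) were lower in OE, and ITGB5 (0.46) and ITGA3 (0.14) higher. The matched 4 have low GC content (38.3% to 42.9%), and OE replicate 1 lay below the mean of the other OE libraries in each. Without it they were at -0.70, -0.18, -0.17 and -0.14 in the order given. Across all tested genes carrying either 7-base match (4014 genes), the median of the log2 fold changes was -0.03, equal to that of all tested genes at 2 decimals.

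How OE replicate 1 departed from the other OE libraries varied with the base composition of the members' transcripts. The departure of OE replicate 1 from the mean of OE replicates 2 and 3, on log2(FPKM + 1), was negative in ITGAV (-0.49), ITGB1 (-0.30), ITGA2 (-0.41) and ITGA6 (-0.21), whose longest coding transcripts have 38.3% to 42.9% GC. It was positive in ITGB5 (0.34), ITGA5 (0.18), ITGA3 (0.39) and ITGB4 (0.69), with 54.3% to 63.7% GC. Over the 8 members the Spearman correlation of departure with GC content was 0.952, and over 12305 tested genes 0.784, both across genes that share the same libraries. All 8 members had a wider range in OE than in NC, with a median range of 0.41 against 0.11 (log2). Among the 12305 genes the range was wider in OE in 9636, and the medians were 0.36 and 0.15.

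**Figure D3:**
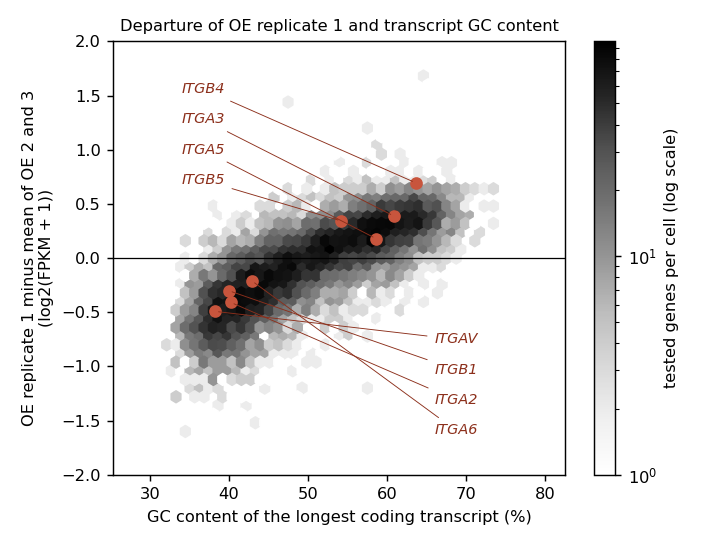
Departure of OE replicate 1 from the mean of OE replicates 2 and 3 (vertical axis, log2(FPKM + 1)) against the GC content of the longest coding transcript (horizontal axis, %), with the density of all tested genes in grey and the 8 tested members in red. The 4 members with low GC content lie below 0 and the 4 with high GC content lie above 0, within the cloud of all genes.

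When each library was corrected for transcript GC content and length by loess, 6 of the 8 members passed the test, as did 28.7% of all genes tested there. ITGA2 (-0.78), ITGB4 (-0.88) and ITGB5 (0.48) kept their direction, and ITGA5 (-0.27, adjusted p = 0.0088), ITGAV (-0.27, adjusted p = 0.012) and ITGA3 (0.19, adjusted p = 0.029) were added, while ITGA6 (-0.20, adjusted p = 0.45) and ITGB1 (-0.19, adjusted p = 0.14) were not. Without OE replicate 1, 4 of the 8 passed, against 28.5% of all genes. With NC replicate 1, 2 or 3 left out none of the 8 members passed (4 of them each time with an unadjusted p under 0.05 in limma), against 2.38%, 2.52% and 3.28% of all genes. Without OE replicate 3 ITGA2 alone passed, against 3.73%. None passed without moderation of the variance either (4 with an unadjusted p under 0.05), against 6.77%. No member changed sign in any of these fits.

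**Figure D4:**
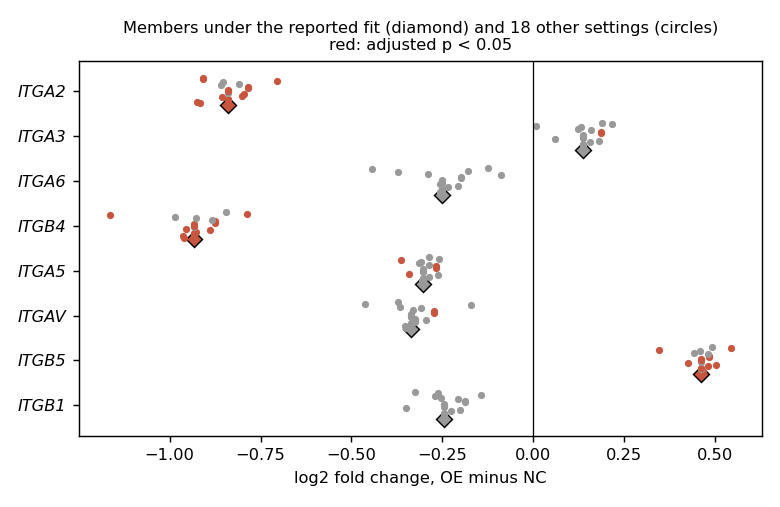
Log2 fold change (OE minus NC) of the 8 tested members under the reported fit (diamonds with a black edge) and under 18 other settings (circles), red where the adjusted p was under 0.05. All points of a member lie on one side of 0, and the colour changes with the setting for ITGA2, ITGB4, ITGB5, ITGA5, ITGAV and ITGA3.

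Of 24 genes for extracellular ligands of integrins in the table, 20 were tested. Of these 9 passed, 3 higher and 6 lower in OE, against 11.4% of all tested genes (4.69% higher and 6.66% lower). The median log2 fold change of the 20 ligand genes was -0.20. The largest falls were those of COL1A1, a fibrillar collagen chain (3.26 ± 0.741 FPKM in NC and 1.15 ± 0.189 FPKM in OE, log2 fold change -0.97), LAMB1, a laminin β chain (24.9 ± 1.79 and 14.6 ± 1.24 FPKM, -0.73), and FN1, fibronectin (6.79 ± 0.884 and 3.96 ± 0.541 FPKM, -0.65). The largest rises were those of CCN2 (12.2 ± 0.822 and 23.4 ± 3.42 FPKM, 0.88), LAMB3 (399 ± 33.3 and 733 ± 180 FPKM, 0.85) and CCN1 (181 ± 5.63 and 250 ± 18.3 FPKM, 0.46), the CCN proteins being matrix-associated ligands of αv and α6 integrins. Their adjusted p lay between 0.0081 and 0.026.

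LAMB3 encodes the β3 chain of laminin-332, the ligand of α3β1 and α6β4. LAMA3, the α3 chain of the same trimer, named here after its values were seen, measured 66.8 ± 0.729 FPKM in NC and 62.9 ± 4.13 FPKM in OE (-0.09, adjusted p = 0.53). LAMB3 thus rose and LAMA3 did not pass, while of the receptors' α and β4 chains ITGB4 fell and ITGA3 and ITGA6 did not pass.

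**Figure D5:**
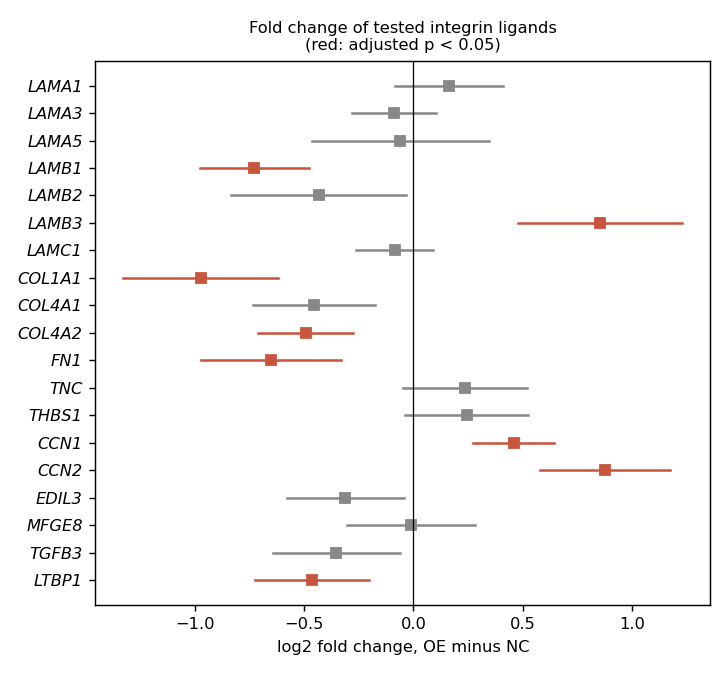
Log2 fold change (OE minus NC, on log2(FPKM + 1)) of 19 of the 20 tested genes for extracellular integrin ligands, with 95% intervals from limma. The 8 in red passed an adjusted p of 0.05, LAMB3, CCN1 and CCN2 upward and LAMB1, COL1A1, COL4A2, FN1 and LTBP1 downward.

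Intracellular partners were counted against the same 11.4% of all tested genes. Of 6 tested activators 1 fell, TLN2, a talin isoform (3.16 to 3.36 FPKM in NC and 1.34 to 2.33 FPKM in OE, log2 fold change -0.68, adjusted p = 0.032). Its abundant relative TLN1 measured 199 ± 2.42 and 182 ± 31.9 FPKM (-0.14, adjusted p = 0.49). None of the 6 tested inhibitors passed (2 with an unadjusted p under 0.05). Of 12 tested actin linkers 1 fell, VCL, which encodes vinculin (84.4 ± 2.63 and 64.8 ± 3.53 FPKM, -0.38, adjusted p = 0.027). Of 13 tested signalling adaptors PTK2B, a relative of focal adhesion kinase (-0.55), and GIT2 (-0.48) fell and GIT1 (0.42) rose, the GIT proteins being GTPase regulators at focal adhesions (adjusted p 0.018 to 0.027).

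None of the 4 hemidesmosome partners of β4 passed in limma (0 with an unadjusted p under 0.05): PLEC, DST, COL17A1 and CD151 had a median log2 fold change of 0.20. PLEC, the plectin that joins β4 to keratins, measured 214 ± 6.79 FPKM in NC and 269 ± 65.5 FPKM in OE (0.30, adjusted p = 0.25). Among 9 lateral membrane partners SLC3A2, the CD98 heavy chain that binds β chains and carries amino acid transporters, rose from 151 ± 5.52 to 338 ± 32.3 FPKM (log2 fold change 1.15, adjusted p = 0.0013). The tetraspanin CD82 fell from 29.2 ± 2.13 to 19.8 ± 2.35 FPKM (-0.54, adjusted p = 0.027). Of 8 tested trafficking genes ARF6, a GTPase of integrin recycling, rose (0.31, adjusted p = 0.049). Over these lists, with the extracellular ligands and the other integrin chains, 18 of 84 tested genes passed, 6 higher and 12 lower. The ligands made up 9 of these 18. Of all tested genes 11.4% passed, 4.69% higher and 6.66% lower.

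Epithelial markers moved with the same groups. All 6 tested passed, against 11.4% of all tested genes. CDH1, the epithelial cadherin, fell from 10.9 ± 0.953 to 3.01 ± 0.507 FPKM (log2 fold change -1.58). KRT8 (-1.42), KRT18 (-0.85), EPCAM (-0.67) and KRT19 (-0.56) also fell, and KRT7 (0.45) rose. The summed FPKM of the epithelial marker list was 3889 to 4051 in NC and 3044 to 4033 in OE. Their part in the integrin differences was not tested, and in bulk RNA fewer cells of one kind and less RNA per cell cannot be told apart. ITGB2, a β chain of leukocyte integrins, measured 50.6 ± 2.73 FPKM in NC and 67.9 ± 17.0 FPKM in OE (0.39, adjusted p = 0.17), while its α partners ITGAL, ITGAM, ITGAX and ITGAD were under 1 FPKM in every library, and so was the leukocyte marker PTPRC.

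Over the 6 libraries, the genes whose log2(FPKM + 1) followed ITGA2, the member with the smallest p, most closely among 12321 were TNIK (Pearson r = 0.9983), MT-ND5 (r = 0.9980) and GSTA4 (r = 0.9979). TNIK measured 8.42, 9.05 and 8.52 FPKM in NC and 4.23, 5.62 and 5.32 FPKM in OE replicates 1, 2 and 3. All 3 genes were lower in OE than in NC and had their lowest value in OE replicate 1, as ITGA2 did. With 6 points in 2 groups such values describe these libraries only.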

How the data were processed

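Paired-end libraries of polyadenylated RNA were read on an Illumina NovaSeq instrument. The authors deposited 1 table of FPKM values for 19727 genes, rounded to 2 decimals, with 1 column per library. The submitters' processing notes name hg38; the aligner, counting program and annotation are not given in the sources used here. Columns were matched to samples by group and replicate number, and 0 were left unused. FPKM depends on the library total, and no count model was fitted. Depth was computed from genes with 1 transcript under 800 nt. Lengths, GC content, coordinates and 3′ UTRs came from GENCODE release 29 (GRCh38).

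Tests used limma 3.58.1 in R 4.3.3 (trend, two-sided, no covariate) on log2(FPKM + 1) and were tested on simulated data. Figures used matplotlib 3.10.9. The members, the gene lists and the rule for named genes (all members, and in each list up to 3 called rises and 3 called falls with groups that did not overlap) were chosen with earlier results of these data known. Alternatives were smaller pseudocounts (0.1 and 0.01), omission of the filter, a stricter filter (mean of 5 FPKM), TPM, median-ratio or quantile scaling, no moderation or robust eBayes, the replicate block, GC and length correction by loess, and leaving out each library. A few items are not reported here.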

Additional observations from a re-analysis of the deposited data

How the results depend on the processing

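All 8 tested members kept their direction under all 18 alternatives, and ITGA6 and ITGB1 stayed outside the threshold in each. Without moderation of the variance 0 members passed (4 with an unadjusted p under 0.05; ITGA2 -0.84, adjusted p = 0.053; ITGB4 -0.93, 0.11; ITGB5 0.46, 0.11), with 834 of all tested genes and 10 of the other list genes. With no filter ITGB5 (0.46) had an adjusted p of 0.052. Quantile normalization brought ITGA5 (-0.34) past the threshold. After GC and length correction 6 members passed, with ITGA3 at 0.19, ITGA5 at -0.27 and ITGAV at -0.27, with 3526 of all genes and 37 list genes. With the replicate block added to that correction 6 passed at the same values, with 2731 and 29. Leaving out 1 library gave 0 to 4 members, 293 to 3514 of all genes and 3 to 34 list genes. The log2 fold change then ranged from -0.91 to -0.70 for ITGA2, from -1.16 to -0.79 for ITGB4, from 0.35 to 0.55 for ITGB5, from -0.36 to -0.26 for ITGA5, from 0.01 to 0.22 for ITGA3 and from -0.46 to -0.17 for ITGAV. ITGB4 and ITGB5 lost the threshold without any 1 NC library (adjusted p 0.076 to 0.15) or OE replicate 3 (0.091 and 0.10), and ITGA2 without any 1 NC library (0.054 to 0.068). These fits have fewer samples.

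The design text speaks of 3 pairs without saying that the replicate numbers mark them. Deviations of same-numbered NC and OE libraries correlated weakly (r = 0.073, 0.0065 and 0.057 for replicates 1, 2 and 3), which shows no pairing by number and does not exclude one. The replicate block left 923 of all tested genes and 11 list genes, and the same 3 members passed (adjusted p 0.021, 0.019 and 0.0498 for ITGA2, ITGB4 and ITGB5).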
